A study of Mus musculus with 12 samples.

Results

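The IFIT and IFITM genes are 2 families of interferon-stimulated antiviral genes, and 7 of their mouse members are described here: Ifit1, Ifit2 and Ifit3 of the first family, and Ifitm1, Ifitm2, Ifitm3 and Ifitm6 of the second. They were taken by gene symbol, not by a cut on their values, as 7 of the 38215 genes in the gene count table. Earlier results of these data were known when they were chosen. The libraries came from RAW264.7, an established macrophage line of BALB/c mouse origin, treated for 24 hours with control non-targeting siRNA or SF3a1 siRNA, both delivered by nucleofection, and then given either no LPS or 20 ng/ml LPS for 4 hours. LPS is a component of the Gram-negative cell wall that is sensed through TLR4, and SF3a1 is a subunit of the SF3a complex, which works in pre-mRNA splicing as part of the U2 snRNP. Each of the 4 groups (control siRNA, control siRNA with LPS, SF3a1 siRNA, SF3a1 siRNA with LPS) had 3 replicates. Because all replicates were treatments of a single cell line, the tests measure the spread between cultures of this line and between their sequenced libraries. In bulk RNA, a lower level in every cell and fewer cells expressing a gene cannot be told apart.

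IFIT proteins are cytosolic proteins built of tetratricopeptide repeats. Ifit1 binds the capped end of RNA that lacks ribose methylation and thereby blocks its translation, while Ifit2 and Ifit3 form complexes with other IFIT proteins. IFITM proteins are small membrane proteins that hinder the fusion of enveloped viruses with host membranes, Ifitm3 mainly at late endosomes and Ifitm1 mainly at the cell surface. In macrophages, LPS induces such genes through TLR4, TRIF and IRF3 and then through secreted interferon-beta, whose receptor activates STAT proteins and Irf9 at interferon-stimulated response elements (ISREs).

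The families lie in separate clusters (mm10, GENCODE vM21). Ifit2 (ENSMUSG00000045932, chr19:34550694-34576419), Ifit3 (ENSMUSG00000074896, chr19:34583531-34588731) and Ifit1 (ENSMUSG00000034459, chr19:34640871-34650009) are on the plus strand. Ifitm2 (ENSMUSG00000060591, chr7:140954837-140955987, minus strand), Ifitm1 (ENSMUSG00000025491, chr7:140967221-140969825, plus strand), Ifitm3 (ENSMUSG00000025492, chr7:141009586-141010770, minus strand) and Ifitm6 (ENSMUSG00000059108, chr7:141015699-141017924, minus strand) share the other cluster. Only uniquely mapping reads were counted, so the counts of Ifit3 and Ifit1, which have close relatives beside them (Ifit3b, Ifit1bl1, Ifit1bl2), are uncertain, as are those of the similar Ifitm genes. Ifitm2 shares 268 exonic bases on the same strand with the later model Gm45717, which is not in the count table.

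The ISRE letters, GAAA followed by any 2 bases and a second GAAA, were searched on both strands of windows from 250 bases before to 50 bases after the RefSeq transcript starts (GRCm38.p6). Among the members they were found in the windows of Ifit1, Ifit3, Ifitm2 and Ifitm3. The stretches with these matches are printed, together with that of Ifit3b, because they lie at the starts of genes that rose with LPS, and capitals mark the matches. Windows of the relatives Ifit1bl1 and Ifit1bl2, which also rose with LPS, held ISRE matches too. The matches of Ifit1bl2, a minus-strand gene, are the same bases as those of Ifit1, read on the other strand. The matches of Ifit1bl1 are not printed. The stretches of Ifit1 (chr19:34640771-34640827, plus strand), Ifit3 (chr19:34583359-34583430, plus strand), Ifit3b (chr19:34607755-34607826, plus strand) and Ifitm2 (chr7:140955984-140956021, minus strand) include 14 bases on each side. The Ifitm3 stretch (chr7:141010716-141010742, minus strand) runs from the first to the last matched base.
Ifit1: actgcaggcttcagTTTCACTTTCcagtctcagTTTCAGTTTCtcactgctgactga
Ifit3: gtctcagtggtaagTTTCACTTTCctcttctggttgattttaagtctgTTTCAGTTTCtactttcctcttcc
Ifit3b: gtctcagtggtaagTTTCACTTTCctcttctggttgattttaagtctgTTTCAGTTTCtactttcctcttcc
Ifitm2: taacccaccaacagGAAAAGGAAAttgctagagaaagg
Ifitm3: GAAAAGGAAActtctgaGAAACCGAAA

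Ifit1, Ifit3 and Ifit3b each held 2 matches on the minus strand relative to transcription, with the same letters in the same order. The matches began 104 and 85 bases before the start in Ifit1, and 156 and 122 bases before it in Ifit3. The printed stretches of Ifit3 and Ifit3b were identical in 72 of 72 bases. In Ifitm3 both matches lay just past the start, beginning 2 and 19 bases after it, and in Ifitm2 the single match began 46 bases before the start. Of the 32851 RefSeq windows of this length, 3.44% held at least 1 such match and 0.225% held at least 2. The windows of Ifit2, Ifitm1 and Ifitm6 held no match. Of the other letters searched on both strands, TTCNNNGAA, the letters of a gamma-activated site, was in the windows of Ifit2, Ifitm3 (overlapping the second of its ISRE matches) and Ifitm6 and in 8.3% of all windows. The NF-kB letters, GGGA, any 4 bases and CC, were in those of Ifit2 and Ifitm3 and in 20.7% of all windows. TATAAA was in those of Ifitm2 and Ifitm6 and in 13.6% of all windows. The Ifit2 windows lie around its annotated first exon, to which the exon data return.

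The libraries held from 12746019 to 41091887 reads counted on genes. The 7 members took 0.0240% to 0.0414% of these counts with control siRNA, 0.253% to 0.392% with control siRNA and LPS, 0.0452% to 0.0629% with SF3a1 siRNA, and 0.0892% to 0.146% with SF3a1 siRNA and LPS. Levels are given as CPM, a gene's counts as a share of its library's counted reads after TMM scaling, for replicates 1, 2 and 3 in that order. The label of the siRNA was first checked on its target. Sf3a1 stood at 173, 216 and 185 CPM with control siRNA and at 27.1, 27.5 and 32.1 CPM with SF3a1 siRNA. With LPS it stood at 150, 194 and 157 CPM and at 30.3, 26.7 and 45.0 CPM, respectively. No library of a knockdown group reached the control range, and the fitted level was 15.1% of control without LPS and 20.4% with LPS (edgeR quasi-likelihood test, adjusted p = 1.14e-05 and 1.47e-05). The macrophage markers were present: all 7 of Adgre1, Cd68, Csf1r, Lyz2, Itgam, Ptprc and Fcgr1 passed the filter on low counts, with summed levels of 8995 to 13150 CPM per library, led by Lyz2. None of the fibroblast, lymphocyte, epithelial, endothelial and red cell markers passed it, and the highest sum of any of these lists in any library was 1.83 CPM, for the endothelial list.

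The plot of levels by library shows the 7 members and Sf3a1.

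**Figure D1:**
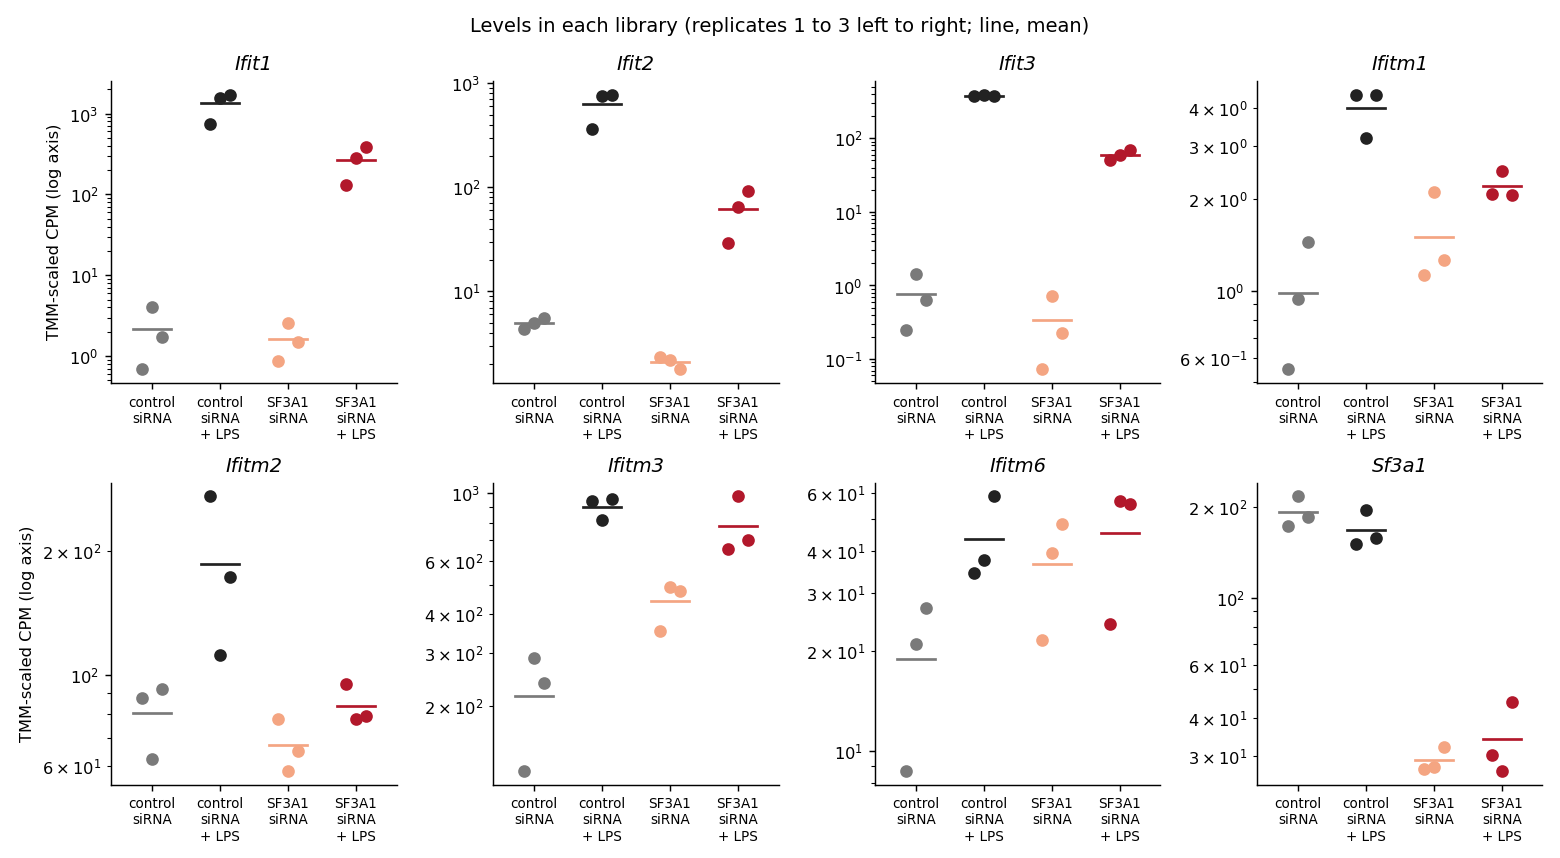
TMM-scaled CPM of the 7 members and Sf3a1 on log axes with a separate scale per gene. Each point is a library (replicates 1 to 3 from left to right) and each line the mean of the 3. With LPS, the SF3a1 siRNA libraries of Ifit1, Ifit2 and Ifit3 sit below all control siRNA libraries, at 29.1 to 384 CPM, whereas those of Ifitm3 overlap the control range.

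In control siRNA cells, LPS raised every member. All 7 were called higher at an adjusted p of 0.1 or less, beside 13.8% of the 14983 genes tested (edgeR quasi-likelihood test with Benjamini-Hochberg adjustment, used for all adjusted p-values of genes below). The members' median log2 fold change was 2.06 and that of all genes tested -0.02. The libraries with and without LPS did not overlap for any of the 7, beside 17.2% of all genes that were higher without overlap. The log2 fold changes of the IFIT genes were 7.0 to 9.34 and those of the IFITM genes 1.2 to 2.06, ranges that do not overlap.

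Ifit1 had 0.688, 4.07 and 1.70 CPM without LPS and 752, 1551 and 1708 CPM with LPS. The groups were far apart, with replicate 1 the lowest of its group in each. The fitted log2 fold change was 9.34 ± 0.75 (SE, n = 3 per group, edgeR adjusted p = 1.56e-06). Ifit3 went from 0.252, 1.43 and 0.639 CPM to 369, 389 and 377 CPM. Its levels with LPS were nearly equal across the 3 libraries, while its resting levels rested on 58 counts in all and were spread widely. The log2 fold change was 9.06 ± 0.55 (edgeR adjusted p = 1.42e-07). Ifit2, which promotes cell death in some settings, had the highest resting level of the 3, at 4.38, 5.0 and 5.49 CPM, and reached 364, 755 and 777 CPM with LPS. Replicate 1 was again the lowest with LPS, and the log2 fold change was 7.0 ± 0.46 (edgeR adjusted p = 2.53e-07).

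Ifitm3, the endosomal restriction factor, was already abundant without LPS, at 123, 287 and 238 CPM, and stood at 940, 814 and 953 CPM with LPS. The libraries with LPS were close to each other and all above the resting ones, and the log2 fold change was 2.06 ± 0.28 (edgeR adjusted p = 0.000124). Ifitm1, the cell surface member, was scarce throughout, at 0.550, 0.938 and 1.45 CPM without LPS and 4.42, 3.18 and 4.43 CPM with it. These groups did not overlap either, with the same log2 fold change of 2.06 but a larger error (SE 0.37, edgeR adjusted p = 0.00121). Ifitm2, a close homologue of Ifitm3, went from 87.6, 62.3 and 92.2 CPM to 272, 112 and 173 CPM. Its libraries with LPS were the most spread of the IFITM genes by standard deviation relative to the mean, and the log2 fold change was 1.2 ± 0.27 (edgeR adjusted p = 0.00489). Ifitm6, a less studied member, went from 8.69, 21.0 and 27 CPM to 34.4, 37.6 and 58.5 CPM. The groups stood apart by a small margin, with a log2 fold change of 1.21 ± 0.44 (edgeR adjusted p = 0.0583). This call was lost without control siRNA replicate 1 or 2 or control siRNA with LPS replicate 3 (adjusted p 0.102 to 0.189).

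Levels per kilobase of exon put the members in order. In resting control cells the order was Ifitm3 (319 ± 125 CPM per kb, SD, n = 3), Ifitm2 (123 ± 24.6), Ifitm6 (20.9 ± 10.3), Ifit2 (1.26 ± 0.14), Ifitm1 (0.895 ± 0.411), Ifit1 (0.810 ± 0.653) and Ifit3 (0.443 ± 0.344). The last 4 overlapped with their neighbours in this order, while the first 3 did not. With LPS, Ifitm3 stayed first at 1331 ± 113 CPM per kb, followed by Ifit1 (503 ± 193), Ifitm2 (284 ± 123), Ifit3 (217 ± 5.76), Ifit2 (161 ± 59.1), Ifitm6 (48.1 ± 14.5) and Ifitm1 (3.67 ± 0.658). Ifit1, Ifitm2 and Ifit3 overlapped with their neighbours there. The IFIT genes thus made up 0.458% to 0.663% of the members' summed CPM per kb in the resting control libraries and 24.2% to 41.4% in those with LPS.

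With SF3a1 siRNA the IFIT genes' share of the members' CPM per kb was smaller, at 0.133% to 0.224% without LPS and 6.97% to 14.5% with LPS, and neither range overlapped that of the control siRNA libraries. Ratios between members of 1 family were read in the same way. With LPS, Ifit2 had 48.4, 48.7 and 45.5 counts per 100 Ifit1 counts with control siRNA and 22.4, 22.6 and 23.9 with SF3a1 siRNA, so the groups were far apart and the replicates of each were close. Ifitm2 had 29.0, 13.7 and 18.2 counts per 100 Ifitm3 counts with control siRNA and LPS and 14.5, 8.01 and 11.3 with SF3a1 siRNA and LPS. These groups overlapped, but the ratio with SF3a1 siRNA was below that of the control of the same number in all 3 pairs. With LPS, Ifit3 had 49.1, 25.1 and 22.1 counts per 100 Ifit1 counts with control siRNA and 39.1, 20.6 and 17.8 with SF3a1 siRNA, which overlapped but were lower in each pair. Ifitm6 had 3.66, 4.62 and 6.14 counts per 100 Ifitm3 counts with control siRNA and 3.69, 5.81 and 7.89 with SF3a1 siRNA, which overlapped and were higher in each pair. These are ratios within a library and do not depend on scaling between libraries. The plot of the families' make-up shows them by library.

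**Figure D2:**
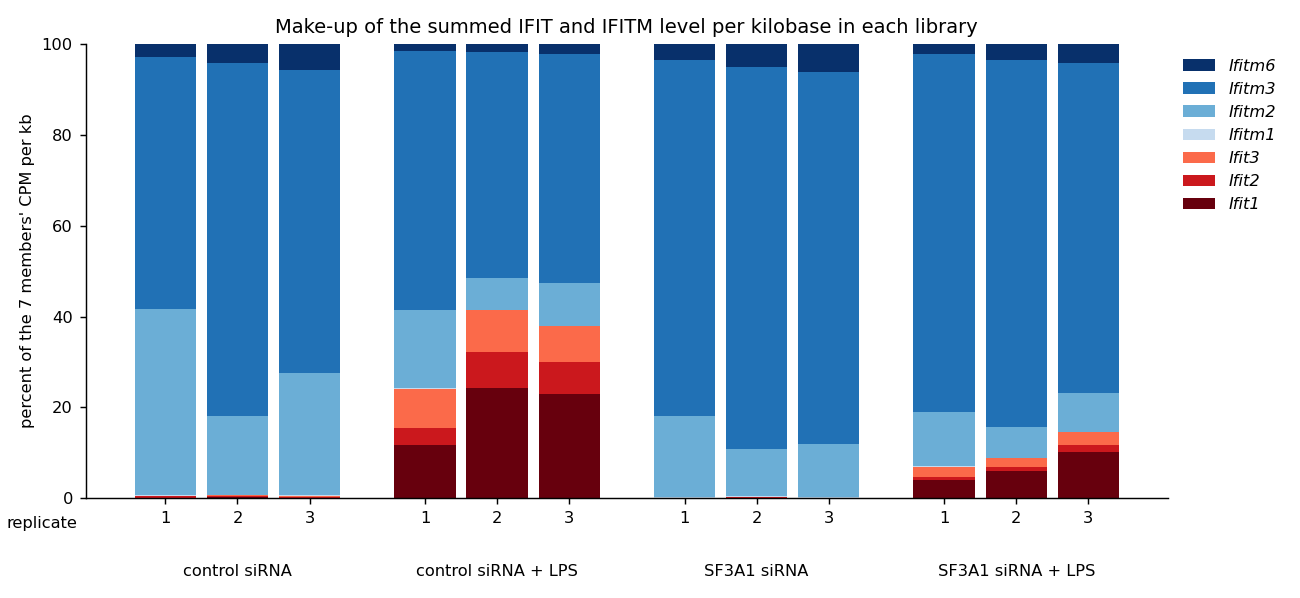
Percent of the 7 members' summed CPM per kb taken by each member in each of the 12 libraries, with IFIT genes in reds and IFITM genes in blues. With LPS the red part is 24.2% to 41.4% in control siRNA libraries and 6.97% to 14.5% in SF3a1 siRNA libraries.

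Without LPS, SF3a1 siRNA raised 1 of the 7 members, Ifitm3, and lowered 1, Ifit2, and the other 5 did not pass the test. Over all genes tested, 13.7% were called higher and 20.1% lower, so both counts of members were near the share of all genes. Ifitm3 was the 1 member higher without overlap between the groups and Ifit2 the 1 lower, beside 20.2% and 25.4% of all genes. The members' median log2 fold change was -0.26 and that of all genes -0.02. Ifitm3 stood at 353, 493 and 478 CPM, all above the 123 to 287 CPM of the control libraries, with a log2 fold change of 1.03 ± 0.27 (edgeR adjusted p = 0.0127). It was 2.88, 1.72 and 2.01 times the control level of the same replicate number. Ifit2 stood at 2.33, 2.17 and 1.79 CPM, all below the 4.38 to 5.49 CPM of the control libraries, with a log2 fold change of -1.22 ± 0.41 (edgeR adjusted p = 0.0459). That call was lost without replicate 2 or 3 of either group (adjusted p 0.108 to 0.138).

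Ifitm6 had 21.6, 39.6 and 48.4 CPM with SF3a1 siRNA alone, against 8.69, 21.0 and 27 CPM in the controls. The groups overlapped, but each knockdown library was above the control of the same number, and the log2 fold change of 0.95 ± 0.43 did not pass (edgeR adjusted p = 0.128). With the replicate number as a block, Ifitm6 was called higher as well (log2 fold change 1.01, edgeR adjusted p = 0.00113), which made 2 members higher beside 20.7% of all genes. The calls also included Ifitm6 with DESeq2 and with no filter on low counts. Ifitm1, at 1.13, 2.12 and 1.26 CPM, Ifitm2, at 78.1, 58.2 and 65.3 CPM, and Ifit1, at 0.875, 2.56 and 1.49 CPM, overlapped with the controls. Ifit3 was at 0.0729, 0.725 and 0.223 CPM, from 18 counts in all, and also overlapped. Against the control of the same number, Ifit3 was at 28.9%, 50.7% and 34.9% and Ifitm2 at 89.2%, 93.5% and 70.8%. Ifit1 and Ifitm1 went both ways between replicate numbers. The 95% intervals on the log2 scale were -0.19 to 1.47 for Ifitm1, -0.84 to 0.32 for Ifitm2, -1.80 to 1.08 for Ifit1 and -2.66 to 0.35 for Ifit3.

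With LPS, SF3a1 siRNA lowered 5 of the 7 members, all 3 IFIT genes together with Ifitm1 and Ifitm2, beside 20.4% of all genes called lower. The same 5 were lower without overlap between the groups, as were 21.1% of all genes. The members' median log2 fold change was -1.14 and that of all genes -0.04. Ifit2 had the largest drop of the 7. It stood at 29.1, 64.4 and 91.6 CPM, against 364 to 777 CPM with control siRNA, and at 7.98%, 8.53% and 11.8% of the control of the same number. The groups were widely separated, with a log2 fold change of -3.36 ± 0.38 (edgeR adjusted p = 7.03e-05). Ifit3, at 50.8, 58.7 and 68.4 CPM, was at 13.8%, 15.1% and 18.1% of its numbered controls, with a log2 fold change of -2.67 ± 0.39 (edgeR adjusted p = 0.000322). Ifit1, at 130, 285 and 384 CPM, was at 17.3%, 18.4% and 22.5%, with a log2 fold change of -2.33 ± 0.54 (edgeR adjusted p = 0.00582). In none of the 3 genes did a knockdown library reach the lowest control library.

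Ifitm2 stood at 95, 78.0 and 79.4 CPM, below the 112 to 272 CPM of the controls, with a log2 fold change of -1.14 ± 0.27 (edgeR adjusted p = 0.00644). The resting control libraries had been at 62.3 to 92.2 CPM. Ifitm1 stood at 2.09, 2.48 and 2.07 CPM, below the 3.18 to 4.43 CPM of the controls, with a log2 fold change of -0.87 ± 0.36 (edgeR adjusted p = 0.0845). That call was lost without any of 7 libraries (adjusted p 0.106 to 0.191), namely control siRNA replicate 2, control siRNA with LPS replicates 1 and 3, SF3a1 siRNA replicate 3, and each SF3a1 siRNA with LPS library. It was also lost with no filter on low counts and without replicate 1 in all 4 groups. Ifitm3, at 655, 974 and 702 CPM, overlapped with the controls (log2 fold change -0.22, 95% interval -0.79 to 0.36, edgeR adjusted p = 0.595). Ifitm6, at 24.2, 56.6 and 55.4 CPM, overlapped as well (log2 fold change 0.06, 95% interval -0.87 to 0.98, edgeR adjusted p = 0.938).

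In order of level per kilobase, SF3a1 siRNA with LPS left Ifitm3 first (1146 ± 254 CPM per kb), then Ifitm2 (128 ± 14.4), Ifit1 (100.2 ± 48.1), Ifitm6 (50.1 ± 20.3), Ifit3 (34.0 ± 5.05), Ifit2 (15.7 ± 7.98) and Ifitm1 (2.02 ± 0.211). Ifitm2, Ifit1, Ifitm6 and Ifit3 overlapped with their neighbours. Without LPS the order was Ifitm3 (651 ± 113), Ifitm2 (103 ± 15.3), Ifitm6 (40.4 ± 15.1), Ifitm1 (1.38 ± 0.490), Ifit1 (0.618 ± 0.322), Ifit2 (0.534 ± 0.0718) and Ifit3 (0.195 ± 0.196). There Ifit1 overlapped with both Ifit2 and Ifit3, and no other members overlapped.

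The response to LPS was also tested within the SF3a1 siRNA cultures. There 4 members were called higher, Ifit1, Ifit2, Ifit3 and Ifitm3, beside 6.6% of all genes. The same 4 were higher without overlap, as were 13.3% of all genes. The members' median log2 fold change was 0.82 and that of all genes 0.01. The IFIT genes rose by 7.37 ± 0.71 (Ifit1), 4.86 ± 0.44 (Ifit2) and 7.53 ± 0.57 (Ifit3) on the log2 scale (edgeR adjusted p = 2.47e-05, 1.39e-05 and 3.79e-06). Ifitm3 rose by 0.82 ± 0.27 (edgeR adjusted p = 0.0928), with every library with LPS above every one without. That call held only without control siRNA replicate 1 or 2, control siRNA with LPS replicate 1 or SF3a1 siRNA with LPS replicate 1, and was lost without any other single library (adjusted p 0.114 to 0.322). For Ifitm1, Ifitm2 and Ifitm6 the groups overlapped, with log2 fold changes of 0.56, 0.32 and 0.31 (95% intervals -0.25 to 1.36, -0.26 to 0.90 and -0.61 to 1.24).

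Whether the LPS response differed between the siRNAs was asked with the interaction term. All 7 members had a negative estimate, from -2.14 to -0.88, with a median of -1.51 beside 0.04 for all genes. These comparisons share their libraries, so the estimates are not independent of the ones above. Only Ifit2 was called lower, beside 1.94% of all genes (interaction log2 fold change -2.14 ± 0.55, edgeR adjusted p = 0.0718). Its LPS fold with SF3a1 siRNA was 15%, 19.6% and 36.3% of that with control siRNA in replicates 1, 2 and 3. The call was lost without any of 9 libraries (adjusted p 0.113 to 0.156) and held without control siRNA with LPS replicate 1 or SF3a1 siRNA with LPS replicate 1 or 3.

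Samples with the same replicate number deviated together, and with that number as a block 6 of the 7 members were called lower in the interaction, beside 5.18% of all genes. Their blocked log2 estimates were -2.11 for Ifit1 (edgeR adjusted p = 0.00872), -2.24 for Ifit2 (0.00505), -1.57 for Ifitm1 (0.0721), -0.82 for Ifitm2 (0.0592), -1.33 for Ifitm3 (0.0134) and -1.04 for Ifitm6 (0.0357). Ifit3, whose resting counts were the fewest, was at -1.57 (edgeR adjusted p = 0.267). Within each replicate number the LPS fold was smaller with SF3a1 siRNA for all 7 members. It was 13.6% to 29.1% of the control fold for Ifit1, 29.8% to 51.9% for Ifit3, 23.0% to 53.5% for Ifitm1, 39.1% to 74.5% for Ifitm2, 24.2% to 69.7% for Ifitm3 and 28.2% to 79.8% for Ifitm6. The share of all genes with a smaller fold in every replicate number is not given here, so this count is not set against all genes.

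**Figure D3:**
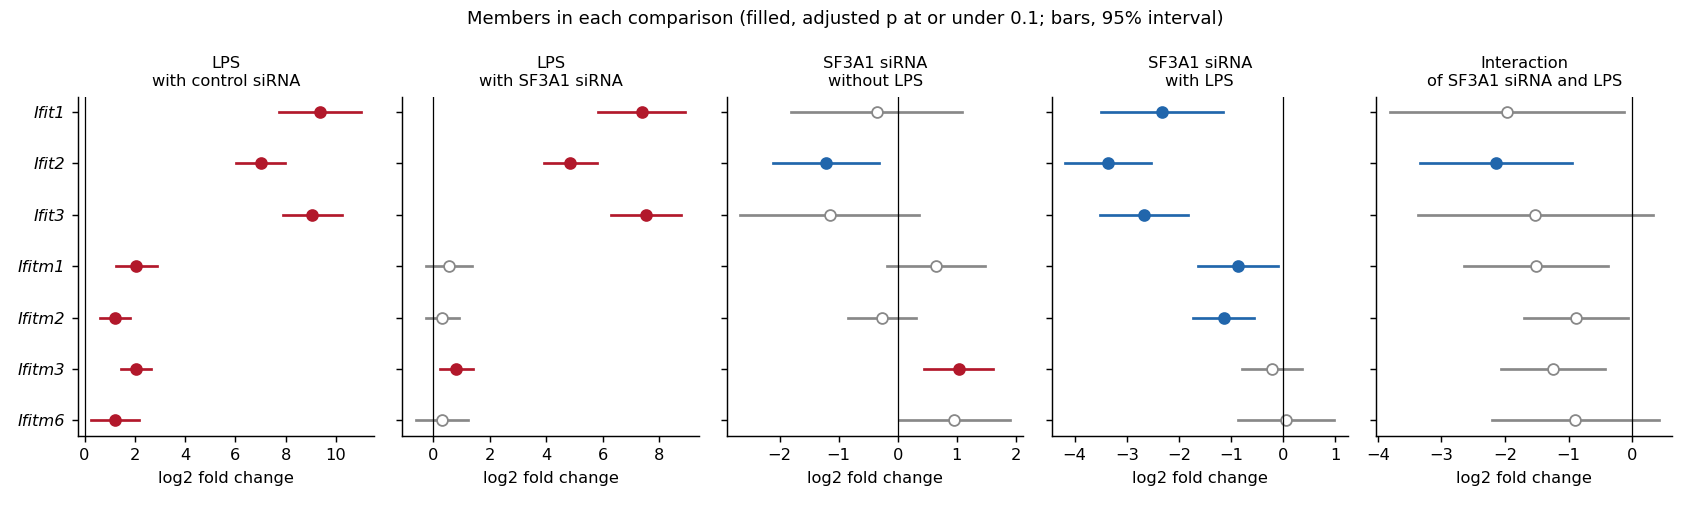
Log2 fold change of each member in the 5 comparisons, with 95% intervals as bars. Filled points were called at an adjusted p of 0.1 or less, red for higher and blue for lower, and open points were not. LPS with control siRNA gives 7 filled points to the right of 0, SF3a1 siRNA with LPS gives 5 to the left, and the interaction estimates all lie left of 0 with Ifit2 alone filled. The horizontal scales differ between panels.

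Other genes of the families were read with the same fit. Of the 6 further genes listed (Ifit1bl1, Ifit1bl2, Ifit3b, Ifitm5, Ifitm7 and Ifitm10), Ifitm10 did not pass the filter on low counts, with at most 0.181 CPM in a library. Ifit3b, at 0.0917 to 0.468 CPM in resting controls and 132, 161 and 151 CPM with LPS, was at 24.2, 25.8 and 29.1 CPM with SF3a1 siRNA and LPS. The last groups were well separated (log2 fold change -2.49, edgeR adjusted p = 0.000102), and its interaction was called too (-2.86, edgeR adjusted p = 0.0431). That interaction call was lost without SF3a1 siRNA replicate 1 or 2 (adjusted p 0.162 and 0.190). Ifit1bl1 went from 20.3, 15.8 and 20.1 CPM to 5.72, 2.90 and 3.27 CPM under LPS (log2 fold change -2.23, edgeR adjusted p = 0.00462). Ifit1bl2, with 3 counts in the resting controls and 1064 with LPS, had 268 counts with SF3a1 siRNA and LPS (log2 fold change -2.04, edgeR adjusted p = 0.000475).

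Ifitm5, a gene known from bone-forming cells, was scarce but higher with SF3a1 siRNA both without LPS (log2 fold change 1.85, edgeR adjusted p = 0.0187) and with it (1.35, edgeR adjusted p = 0.0452). The latter call was lost without replicate 2 of either LPS group (adjusted p 0.127 and 0.190). Its levels were 0.128 to 0.313 CPM with control siRNA, 0.557 to 1.06 CPM with SF3a1 siRNA, 0.556 to 0.789 CPM with control siRNA and LPS, and 0.939 to 2.90 CPM with both. Ifitm7 was called higher with SF3a1 siRNA without LPS (log2 fold change 1.23, edgeR adjusted p = 0.0953), a call lost without any of 7 libraries (adjusted p 0.107 to 0.394), and was at -0.60 with LPS (edgeR adjusted p = 0.369).

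The neighbours within 100 kb were counted for each cluster. Around the Ifit genes, 7 other genes were tested. With control siRNA and LPS 5 of them were called higher, beside 13.8% of all genes, namely Ifit3b, Ifit1bl1, Ifit1bl2, the cholesterol hydroxylase gene Ch25h and the non-coding gene Gm26902 beside it. The transporter gene Slc16a12 was lower (log2 fold change -2.38), beside 18.3% of all genes called lower, and the lysosomal lipase gene Lipa did not pass. Around the Ifitm genes 8 of the 15 other genes in the table were tested. With control siRNA and LPS, Ifitm5 and Bet1l were called higher (1.56 and 0.73) and Sirt3 lower (-0.96), counts near the 13.8% and 18.3% of all genes. The Ifitm5 call was lost without control siRNA replicate 3 or control siRNA with LPS replicate 1 (adjusted p 0.109 to 0.143). With SF3a1 siRNA and LPS, Ifitm5 and Bet1l were higher, and Psmd13, Pgghg and Ric8a lower, by -0.60, -1.05 and -0.71 on the log2 scale, that is 2 and 3 of 8 genes beside 18.4% and 20.4% of all genes.

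Genes of the pathway that feeds the families were read for comparison, in lists chosen with earlier results of these data known. Of 20 other interferon-stimulated antiviral genes, all 20 were called higher with LPS under control siRNA (13.8% of all genes) and under SF3a1 siRNA (6.6%). All 20 were also called lower by SF3a1 siRNA with LPS, beside 20.4% of all genes (median log2 fold change -2.0). None of the 20 lower calls was lost when a single library was left out. The largest drops were those of the chemokine gene Cxcl10 (-3.60), the exonuclease gene Isg20 (-3.47) and the oligoadenylate synthetase-like gene Oasl2 (-3.07). Without LPS 4 of the 20 were lower, a share close to the 20.1% of all genes called lower, and the count was 2 with DESeq2 size factors, 7 with library totals alone and 8 with the replicate block, where 26.3% of all genes were lower. The 4 were led by Mx2 (-1.65), Isg20 (-1.07) and the sensor gene Dhx58 (-0.93). Their calls changed with single libraries: that of Mx2 was lost without any of 10 single libraries (adjusted p 0.101 to 0.362), those of Isg20 (0.122 to 0.283) and Dhx58 (0.106 to 0.168) without replicate 2 or 3 of control siRNA or 1 or 3 of SF3a1 siRNA, and that of Herc6 (-0.65) without any of 5 (0.103 to 0.366). In the interaction 10 of the 20 were lower, beside 1.94% of all genes, led by Cxcl10 (-2.57), Isg20 (-2.40) and Cmpk2 (-2.30), and 15 with the block, beside 5.18%. The call of Cxcl10 was lost without any of 8 single libraries (adjusted p 0.101 to 0.210) and that of Cmpk2 without any of 4 (0.107 to 0.166), while that of Isg20 was lost without SF3a1 siRNA replicate 2 alone (0.135).

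Of the 11 genes of interferon-beta induction below TLR4, SF3a1 siRNA with LPS lowered 5 and raised 1, the adaptor gene Traf3 (0.62), where 20.4% of all genes were called lower and 18.4% higher. The largest drops were Ifnb1 (-2.67, edgeR adjusted p = 0.0186), Irf7 (-2.44) and the kinase gene Ikbke (-1.96). Ifnb1, the secreted interferon itself, had 997 counts over the 3 control siRNA libraries with LPS and 180 over the 3 SF3a1 siRNA libraries, with 2 and 0 counts without LPS. The groups with LPS overlapped for Ifnb1, at 4.92 to 27.5 CPM with control siRNA and 0.636 to 5.02 CPM with SF3a1 siRNA. With the replicate block 8 of the 11 were lower, beside 26.3% of all genes. Without LPS 3 were lower, beside 20.1% of all genes, the adaptor gene Ticam2 (-1.37), Ikbke (-0.72) and Irf3 (-0.58), of which the call of Ikbke was lost without replicate 1 or 2 of control siRNA or 2 or 3 of SF3a1 siRNA (adjusted p 0.101 to 0.235).

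Of 6 receptor signalling genes, SF3a1 siRNA with LPS lowered 2, Stat2 (-2.20) and the receptor kinase gene Tyk2 (-1.73), and raised Jak1 (0.39), a call lost without replicate 3 of either LPS group (adjusted p 0.188 to 0.271). The shares of all genes were 20.4% lower and 18.4% higher. The other 3, the receptor genes Ifnar1 (0.19) and Ifnar2 (0.15) and Irf9 (-0.18), did not pass. Without LPS 4 of the 6 were already lower, Tyk2 (-0.86), Stat2 (-0.80), Irf9 (-0.43) and Ifnar2 (-0.32), and Jak1 (0.65) was higher, beside 20.1% and 13.7% of all genes. The lower calls were 2 with the DESeq2 Wald test, and leaving out single libraries ended those of Ifnar2 (any of 7, adjusted p 0.105 to 0.412), Irf9 (any of 4, 0.113 to 0.446) and Tyk2 (any of 3, 0.142 to 0.238). With LPS, SF3a1 siRNA lowered all 5 inhibitors of interferon signalling, beside 20.4% of all genes, led by the deconjugating protease gene Usp18 (-2.06), Socs3 (-1.02) and the phosphatase gene Ptpn6 (-0.91). The call of Socs1 among them was lost without any of 8 single libraries (adjusted p 0.108 to 0.270). Of 9 genes tested whose products bind or modify the families' proteins, 3 were called higher and 2 lower by SF3a1 siRNA with LPS, beside 18.4% and 20.4% of all genes. The higher ones were Setd7 (1.48), whose product methylates Ifitm3, Zdhhc20 (1.26), a palmitoyltransferase of Ifitm3, and the protease gene Zmpste24 (0.39). The cap methyltransferase gene Cmtr1 (-0.79) and the sensor gene Tmem173 (-0.78) were lower, and Nedd4 did not pass the filter on low counts.

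**Figure D4:**
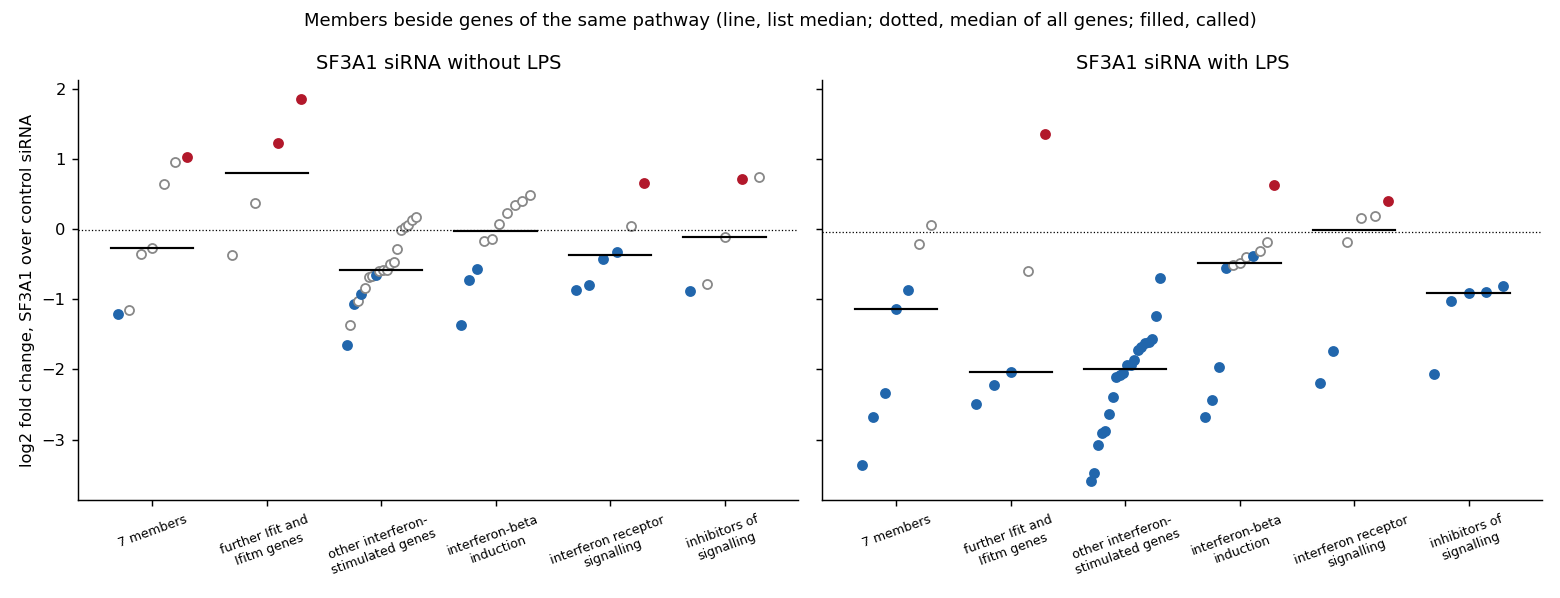
Log2 fold changes of SF3a1 over control siRNA, without LPS on the left and with LPS on the right, for the members and 5 lists of related genes. Each point is a gene, filled where called, red for higher and blue for lower. Horizontal lines are medians of the genes drawn, and the dotted line is the median of all genes. Ifnb1 and Ifit1bl2, with at most 3 counts in both groups, are left out on the left. With LPS all 20 other interferon-stimulated genes lie below 0, and the members range from -3.36 to 0.06.

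Some measures of the libraries moved with the siRNA. The mitochondrial share of the counts was 0.552% to 0.760% in the 6 control siRNA libraries, and in the 6 SF3a1 siRNA libraries it was 0.908% to 1.53%. Of the 7 macrophage markers, SF3a1 siRNA with LPS lowered Fcgr1 (-3.20), Adgre1 (-0.71) and Ptprc (-0.67) and raised Csf1r (0.69), beside 20.4% and 18.4% of all genes. Cd68 (0.23), Lyz2 (0.25) and Itgam (-0.80) did not pass. The part of these shifts in the members' differences was not tested.

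The likeness of profiles was described by Pearson's r of log2 CPM over the 12 libraries, which share the 4 groups. Ifit1 was most like Rsad2, Irgm1 and Ddx60 (r = 0.996, 0.994 and 0.993), Ifit2 most like Cxcl10, Mndal and Ikbke (0.994, 0.994 and 0.993), and Ifit3 most like Usp18, Rsad2 and Hdc (0.996, 0.995 and 0.995). The IFITM genes had other nearest genes and lower values. Ifitm1 was most like B2m, Gm16712 and P4ha1 (0.949, 0.948 and 0.943), and Ifitm2 most like Fcer1g, Carhsp1 and Ebi3 (0.947, 0.947 and 0.946). Ifitm3 was most like Trem1, Chmp4b and Ccdc86 (0.976, 0.964 and 0.962), and Ifitm6 most like Cox17, Anxa3 and Mocs2 (0.941, 0.935 and 0.934). Among the members themselves, r ran from 0.993 between Ifit1 and Ifit3 to 0.134 between Ifitm2 and Ifitm6, the outermost members of their cluster. Ifitm3 and Ifitm2 had an r of 0.442, while Ifitm3 and Ifitm1 had 0.910.

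Use of exons was read from counts per exon bin in 11 libraries, as no exon bins of control siRNA with LPS replicate 3 were used here. Of the members' 22 bins, 16 passed the filter, and none was called in LPS with control siRNA, SF3a1 siRNA without LPS or SF3a1 siRNA with LPS (edgeR diffSpliceDGE). Over all 153624 bins tested, 0.0801%, 0.626% and 0.492% were called. At an unadjusted p under 0.05 there were 1, 0 and 0 of the 16 member bins, and limma-voom with diffSplice called 0 in each. The share of all bins under that unadjusted p is not given here, so no conclusion is drawn from these counts. Ifit1, Ifit3, Ifitm2, Ifitm3 and Ifitm6 have 2 bins each. The first bin of Ifit1 took a share of 4.55% in the 2 control siRNA libraries with LPS and of 4.40% ± 0.83 with SF3a1 siRNA and LPS (SD, n = 3). For Ifit3 these values were 3.42% and 4.26% ± 1.21.

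The member bin under that p was bin 2 of Ifit2 (chr19:34550710-34551022), which lies in the first exon of both transcripts annotated for the gene in GENCODE vM21. Its share of Ifit2 bin counts was 5.09%, 6.72% and 7.91% in resting controls, and 0.290% and 0.414% in the 2 control libraries with LPS. With SF3a1 siRNA it held 10.6%, 5.13% and 7.14% without LPS and 1.09%, 0.893% and 0.498% with LPS. All libraries with LPS were below all those without. The resting shares rested on 30 counts and those with LPS on 84, so that the counts on the bin itself were few in both groups. The difference in log2 usage for LPS with control siRNA was -4.20 and did not pass (edgeR diffSpliceDGE adjusted p = 0.323). It was called with the replicate block (-4.31, edgeR adjusted p = 0.00674), as 1 of 16 member bins beside 0.186% of all bins. It was also called without SF3a1 siRNA with LPS replicate 1 (adjusted p 0.0207). SF3a1 siRNA with LPS gave a difference of 0.98 at this bin, which did not pass (edgeR adjusted p = 1). Most Ifit2 counts in every group fell on bins 4 to 6, from chr19:34570219-34570370 onward. These bins span 152, 126 and 3227 of the gene's 3927 exonic bases and bin 2 spans 313, and the shares are not scaled by length.

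**Figure D5:**
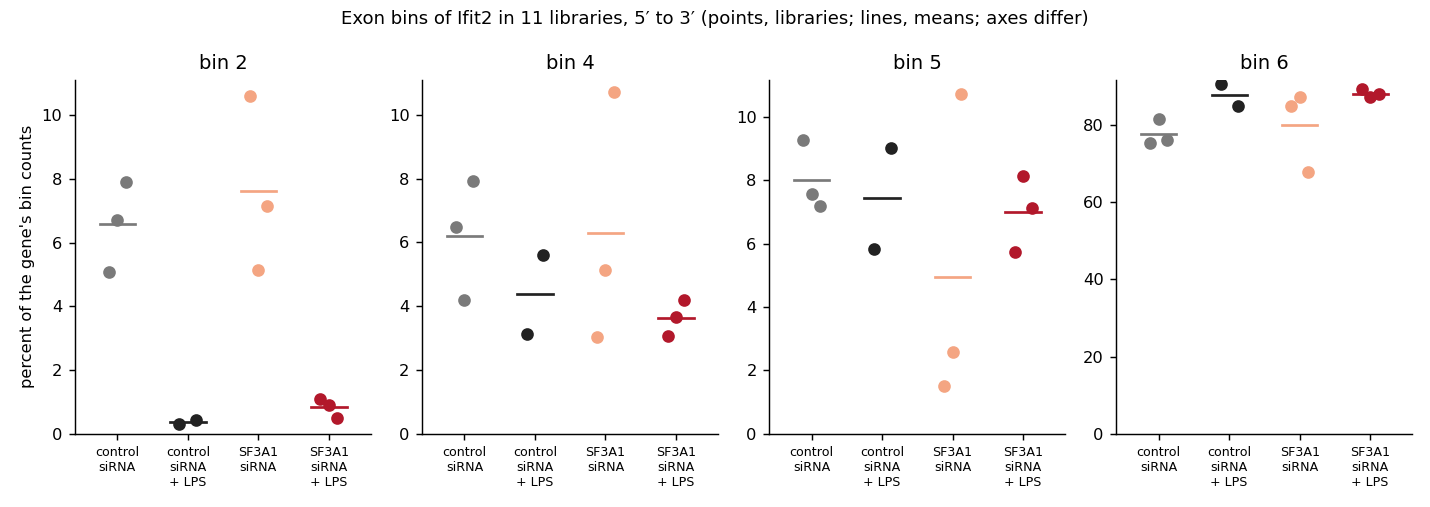
Percent of Ifit2 bin counts on each of the 4 bins that passed the filter, in 11 libraries, with a separate scale per bin from 0. Points are libraries and lines are means. Bin 2 lies at 5.09% to 10.6% without LPS and at 0.290% to 1.09% with LPS, and bin 6 holds 67.9% to 90.6% of the counts in single libraries.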

How the data were processed

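Polyadenylated RNA of 12 cultures was read single-end by Ion Proton sequencing. The authors mapped reads of at least 30 nt to mm10 with GSNAP and deposited raw counts of uniquely mapping reads per Ensembl gene (HTSeq) and per exon bin (DEXSeq's script). Whether counting used the strand is not given in the sources used here. Reads outside genes (17.8% to 27.2%) stayed out of library sizes. Groups follow the sample labels.

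Counts were fitted over all 12 libraries with edgeR 4.0.16 in R 4.3.3 (TMM, filterByExpr, quasi-likelihood test, false discovery rate 0.1), without a replicate term. Exon bins of 11 libraries were tested with diffSpliceDGE. Standard errors are those implied by the test statistic. Alternatives used limma 3.58.1 and DESeq2 1.42.0. Steps were tested on simulated data. Replicates differed beyond sampling noise (chi-squared per degree of freedom 8.85 to 118). This value was 39.6 to 118 in pairs with replicate 1 and 8.85 to 45.4 between replicates 2 and 3.

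The replicate numbers of the labels paired the libraries: deviations from the group means correlated in each of 18 same-numbered pairs (r = 0.143 to 0.600, median 0.356). Replicate 1 libraries combine 2 sequencing runs.

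Members, lists and tests were chosen with earlier results of these data known. All members, Sf3a1 and further family genes are named, and of other lists up to 3 called genes with the largest change per comparison, with exceptions named for counts of 5 or fewer. Promoter windows are RefSeq's. One gene of the pathway lists is not reported here.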

Additional observations from a re-analysis of the deposited data

Results flagged for a closer look

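The LPS response differed between the siRNAs, by the interaction term of the edgeR fit, for 2 genes of the families. Over all genes tested, 1.94% were called lower in this term. The log2 response with SF3a1 siRNA minus that with control siRNA was -2.14 for Ifit2 and -2.86 for Ifit3b. With the replicate number as a block, 6 of the 7 members were called lower, all but Ifit3. With that block 5.18% of all genes were called lower. Among the other pathway genes with a called difference, it was -2.30 for Irf7, -1.40 for Stat2, -1.74 for Socs3 and -1.08 for Cmtr1, and it was above 0 for Ticam2 alone (1.06). Among the other interferon-stimulated genes it was -2.57 for Cxcl10, -2.40 for Isg20, -2.30 for Cmpk2, -1.84 for Trim30a, -1.74 for both Oas3 and Herc6, -1.68 for Bst2, -1.66 for Parp14, -1.47 for Ddx58 and -1.27 for Eif2ak2. Outside the counted genes, the share of reads in SF3a1 siRNA libraries without LPS (median 21.6%) was above that of all control siRNA libraries without LPS, at 17.8% to 19.6%. With LPS these shares overlapped. Of these interaction calls, leaving out single libraries ended those of Irf7 and Ddx58 (9 libraries each, adjusted p 0.104 to 0.178 and 0.102 to 0.232), Bst2 (9, 0.114 to 0.222), Ticam2 (8, 0.111 to 0.178) and Eif2ak2 (2, 0.101 to 0.128), beside Ifit2, Ifit3b, Cxcl10, Cmpk2 and Isg20.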

How the results depend on the processing

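Of the 35 values (7 members in 5 comparisons), 19 kept their direction and their side of the threshold under every alternative run. SF3a1 siRNA without LPS gave 2 members higher with DESeq2 size factors, the DESeq2 Wald test, no filter on low counts, the replicate block, or without replicate 1 in all 4 groups, and 1 to 3 without single libraries (3 without control siRNA replicate 3). Over all genes, 2398 of 14983 were higher with DESeq2 size factors, and 2590 and 1916 of 28638 with the Wald test and no filter. With the block 3105 of 14983 were higher, without replicate 1 in all 4 groups 2711 of 14841, and without single libraries 1547 to 2470. SF3a1 siRNA without LPS gave 2 members lower with no filter, beside 2856 of 28638 genes. Without single libraries it gave 0 to 2, beside 2077 to 3249 genes. The interaction gave 3 members lower with the DESeq2 Wald test, 5 with no filter, 6 with the replicate block, 3 without replicate 1 in all 4 groups, and 0 to 1 without single libraries. Of all genes, 528 and 499 of 28638 were lower in it with the Wald test and with no filter. The block gave 776 of 14983, leaving out replicate 1 in all 4 groups 458 of 14841, and leaving out single libraries 184 to 319. The replicate block gave 1 exon bin for LPS with control siRNA, beside 0.186% of all bins, and single libraries left out gave 0 to 1. Without single libraries, LPS with control siRNA gave 6 to 7 members higher, LPS with SF3a1 siRNA 3 to 4, and SF3a1 siRNA with LPS 4 to 5 lower, which was also 4 with no filter and without replicate 1 in all 4 groups. The counts over all genes were 1758 to 2163, 688 to 1164 and 2610 to 3075 without single libraries. For SF3a1 siRNA with LPS, 2874 of 28638 genes were lower with no filter and 3432 of 14841 without replicate 1 in all 4 groups. The block changed no other call of a member. The cause of these shifts was not tested.

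Among the alternatives run, directions turned only where the change was not called. With the replicate block, Ifitm6 was at -0.027 for SF3a1 siRNA with LPS. Without replicate 1 in all 4 groups, Ifit3b was at -0.52 for SF3a1 siRNA without LPS and the interaction of Ifit1bl2 at 1.36. Without single libraries, the log2 change by SF3a1 siRNA without LPS ran from -0.86 to 0.58 for Ifit1, -1.10 to 1.64 for Ifit1bl1, -2.91 to 0.16 for Ifit1bl2 (at most 3 counts a group), -0.16 to 0.83 for Ifit3b and -0.084 to 0.53 for the usage of Ifit2 bin 2. That of Ifitm6 with LPS ran from -0.13 to 0.37, the interaction of Ifit1bl2 from -2.17 to 0.87, and Sf3a1 with LPS under SF3a1 siRNA from -0.019 to 0.38. Control siRNA replicate 2 set the upper ends for Ifit1, Ifit1bl1 and Ifit1bl2.

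Over all genes, 520 were called in the interaction, but 921 with DESeq2, 930 with no filter, 1756 with the block (55.8% of them higher, against 44.2%), 1012 without replicate 1 in all 4 groups, and 273 to 711 without single libraries. LPS with SF3a1 siRNA called 1598, but 3115 with the block and 1050 to 2005 without single libraries. Scaling by library totals alone moved the median of all genes to -0.20 for LPS with control siRNA and -0.12 with SF3a1 siRNA, and the share of calls that were higher from 42.9% to 27.6%, from 61.9% to 40.1%, and in the interaction from 44.2% to 54.1%. Under it Ifitm6 (control siRNA) and Ifitm3 (SF3a1 siRNA) were no longer called for LPS. Resting control counts of Ifit1, Ifit3 and Ifitm1 were low (161, 58 and 79 over the group), and intervals rest on 3 libraries a group. The part of low counts in the precision of their LPS responses was not tested.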
